A study of Mus musculus with 8 samples.

Results

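The enzymes and transporters that take glucose into the cell and break it down were followed in mouse embryonic stem cells (ESCs) in which WDR5, a scaffold protein of the complexes that methylate histone H3 at lysine 4, was replaced or withdrawn. The set holds 33 genes of glycolysis, lactate and glucose transport, the pentose phosphate pathway and glycogen synthesis, taken by name. Earlier results of these data were known when it was chosen. Shares of called genes set beside those of all genes therefore describe the set and do not test it. A gene was measured where a probe set of the array, a group of short oligonucleotides that read the same transcript, carried its symbol and no other. Such probe sets were found for 29 genes, 27 of them exceeded the expression minimum and were tested, and the whole array gave 11940 tested genes. Gpi1, Eno1 and G6pdx had no probe set of this kind and were not analysed here, and Gapdh, which had only control probe sets and probe sets of several symbols, was followed by the control ones. Eno2 and Gbe1 stayed below the minimum in all 8 arrays.

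All cells were V6.5 mouse ESCs infected with lentivirus and positive for GFP, and all carried a constitutive shRNA against mouse Wdr5 together with a human WDR5 transgene switched on by doxycycline (2 µg/mL). There were 4 groups of 2 arrays: the mutant transgene without doxycycline (F266A -dox) and with it (F266A +dox), and the wild-type transgene without doxycycline (WT -dox) and with it (WT +dox). F266A is a substitution in a cleft through which WDR5 binds RNA, and the -dox groups had the transgene shut off. No group kept its own Wdr5 mRNA untouched. Withdrawal of the wild type or of the mutant below means removal of doxycycline from that line. The drug itself was removed too, and no group had doxycycline without a transgene. In each withdrawal an effect of doxycycline therefore cannot be told apart from an effect of losing WDR5. The duplicates are described as biological, but each transgene was represented by 1 line. P-values therefore measure the spread within a line, and the mutation cannot be told apart from any other difference between the lines. According to the study, transgene RNA was equal in the lines while F266A protein was less abundant, so protein amount and sequence also differ together.

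Glycolysis splits glucose into pyruvate in the cytosol and yields ATP and NADH without oxygen. Hexokinase traps glucose in the cell, phosphofructokinase commits it to the pathway, and lactate dehydrogenase turns pyruvate into lactate, which leaves through monocarboxylate transporters. The pentose phosphate pathway branches off at the first product and supplies NADPH and ribose phosphate. ESCs are known for a high rate of glycolysis, and many of the genes exist as paralogs with different regulation and kinetics. In many cell types hypoxia-inducible factor (HIF) and MYC raise transcription of glycolytic genes.

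The array medians lay between 5.36 and 5.39 on the log2 scale. The deposited values were already quantile normalized, so near-equal medians do not check the arrays or the RNA. The median SD between duplicates was 0.06. The ESC markers were all expressed (8 of 8). Their mean log2 value was 11.58 to 11.67 in F266A -dox, 11.90 to 11.91 in F266A +dox, 12.01 in both WT -dox arrays and 12.07 to 12.08 in WT +dox. Of the other marker lists, 1 of 8 fibroblast, 2 of 6 endoderm, 4 of 6 neural and 5 of 6 trophoblast genes exceeded the minimum. The mean of the trophoblast list was 7.59 to 7.64 in F266A -dox, 7.38 to 7.46 in F266A +dox, 7.14 to 7.21 in WT -dox and 7.34 to 7.40 in WT +dox. The control probe set for 18S ribosomal RNA read 9.57 to 9.60 in F266A -dox, 10.35 to 10.61 in F266A +dox, 10.78 to 11.13 in WT -dox and 10.99 to 11.42 in WT +dox. Wdr5 itself read 9.27 to 9.31 in F266A -dox, 8.56 to 8.59 in F266A +dox, 9.35 to 9.45 in WT -dox and 8.32 to 8.35 in WT +dox, thus higher without doxycycline in both lines. Whether these probe sets also detect the human transgene was not tested, so Wdr5 does not check the labels. The part of cell composition or of ribosomal RNA in the values that follow was not tested, and in bulk RNA a smaller share of a cell type and less RNA per cell cannot be told apart.

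Promoters are given for the genes on which the main contrasts between paralogs turn, the glucose transporter gene Slc2a1, the hexokinase genes Hk2 and Hk1 and the lactate dehydrogenase genes Ldha and Ldhb. Each window runs from 250 bases before to 50 bases after a RefSeq transcription start (assembly GRCm38.p6). Capitals mark the core of the hypoxia response element, ACGTG or GCGTG, on either strand, so that CACGT and CACGC are the same cores on the other strand.
Slc2a1 promoter, chr4:119108495-119108794, plus strand: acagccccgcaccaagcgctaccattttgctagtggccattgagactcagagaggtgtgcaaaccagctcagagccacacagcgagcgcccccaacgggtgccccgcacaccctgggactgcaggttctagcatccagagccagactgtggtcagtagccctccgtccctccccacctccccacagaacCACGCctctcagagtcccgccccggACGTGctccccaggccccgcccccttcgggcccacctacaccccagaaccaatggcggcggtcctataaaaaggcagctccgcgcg
Hk2 promoter, chr6:82774405-82774704, minus strand: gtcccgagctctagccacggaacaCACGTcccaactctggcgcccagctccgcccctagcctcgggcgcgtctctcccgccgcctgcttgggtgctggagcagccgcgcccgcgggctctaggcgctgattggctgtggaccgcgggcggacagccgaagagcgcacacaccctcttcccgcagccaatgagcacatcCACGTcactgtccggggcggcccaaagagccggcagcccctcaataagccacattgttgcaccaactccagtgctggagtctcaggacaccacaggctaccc
Hk1 promoter, chr10:62340372-62340671, minus strand: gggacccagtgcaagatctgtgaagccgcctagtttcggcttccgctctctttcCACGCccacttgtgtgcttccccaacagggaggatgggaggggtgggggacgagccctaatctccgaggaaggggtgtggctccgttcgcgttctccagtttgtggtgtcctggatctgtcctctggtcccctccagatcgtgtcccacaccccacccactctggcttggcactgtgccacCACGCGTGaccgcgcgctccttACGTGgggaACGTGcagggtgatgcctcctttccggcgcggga
Ldha promoter, chr7:46845554-46845853, plus strand: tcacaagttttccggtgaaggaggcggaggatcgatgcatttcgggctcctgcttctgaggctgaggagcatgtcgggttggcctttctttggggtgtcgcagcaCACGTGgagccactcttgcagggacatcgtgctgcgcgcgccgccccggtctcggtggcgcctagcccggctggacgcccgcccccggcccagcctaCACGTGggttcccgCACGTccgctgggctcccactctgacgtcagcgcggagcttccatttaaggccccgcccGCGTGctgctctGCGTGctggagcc
Ldhb promoter, chr6:142507908-142508207, minus strand: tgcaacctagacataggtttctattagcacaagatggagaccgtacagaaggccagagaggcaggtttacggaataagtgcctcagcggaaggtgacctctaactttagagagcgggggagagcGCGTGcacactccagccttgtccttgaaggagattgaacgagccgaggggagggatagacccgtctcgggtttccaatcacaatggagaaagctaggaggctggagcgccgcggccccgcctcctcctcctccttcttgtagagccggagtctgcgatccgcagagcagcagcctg
The window of Ldha held 7 matches, among them 2 copies of the E-box CACGTG, the site of MYC and related factors, which contains the core on both strands. The windows of Slc2a1 and Hk2 held 2 matches each, Ldhb held 1 and Hk1 held 5. Hk1 has a second annotated start, whose window held none, and Ldha a second start with 2 matches. Matches thus occurred both in genes that were higher and in genes that were lower without doxycycline. A promoter was found for 26 of the 27 tested genes (Slc2a3 being the other), and 24 of them (92.3%) had at least 1 core in some window, Gys1 and Tpi1 having none. The core was present in 67.6% of the 9640 tested genes with a promoter and in 46.7% of all 27025 genes of the table. The E-box was present in 4 of the 26 genes (15.4%), against 11.8% of tested genes and 8.09% of all genes. GC content was alike (median 61.7% in the 26 genes and 61.0% in tested genes). Genes with several annotated starts had more windows in which a match could fall. The number of windows per gene was not compared, so these shares do not show enrichment. A match describes letters, not a bound site.

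The first comparison asks how the genes responded when doxycycline was removed and wild-type WDR5 thereby switched off (WT -dox against WT +dox). Of the 27 genes 16 were higher and 4 lower in WT -dox at an adjusted p under 0.05 (limma, two-sided, Benjamini-Hochberg over all genes), and 7 were not called. Of all genes tested, 16.1% were called higher and 15.4% lower. The median difference of the 27 genes was 0.28 on the log2 scale, and that of all genes was 0.00. Called higher were 2 of 4 transporters, 1 of 2 hexokinases, 5 of 6 genes of upper glycolysis, 3 of 3 of lower glycolysis, 1 of 2 lactate dehydrogenases, both pyruvate dehydrogenase kinases, Pfkfb3 and Rpia. The 4 genes that fell were Hk1, Ldhb, Pgls and Taldo1, of which the last pair belongs to the pentose phosphate pathway. In the same comparison 3 of 8 ESC markers and 2 of 5 trophoblast genes were lower, while of 4 neural genes 2 were higher and 1 lower. WT -dox had the highest mean of the 4 groups for 14 of the 27 genes, and WT +dox had the lowest for 14. These ranks were not counted over all genes, so they do not set the 27 genes apart. They include differences that were not called, as for Pkm at -0.01 between F266A -dox and WT -dox (adjusted p = 0.966).

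**Figure D1:**
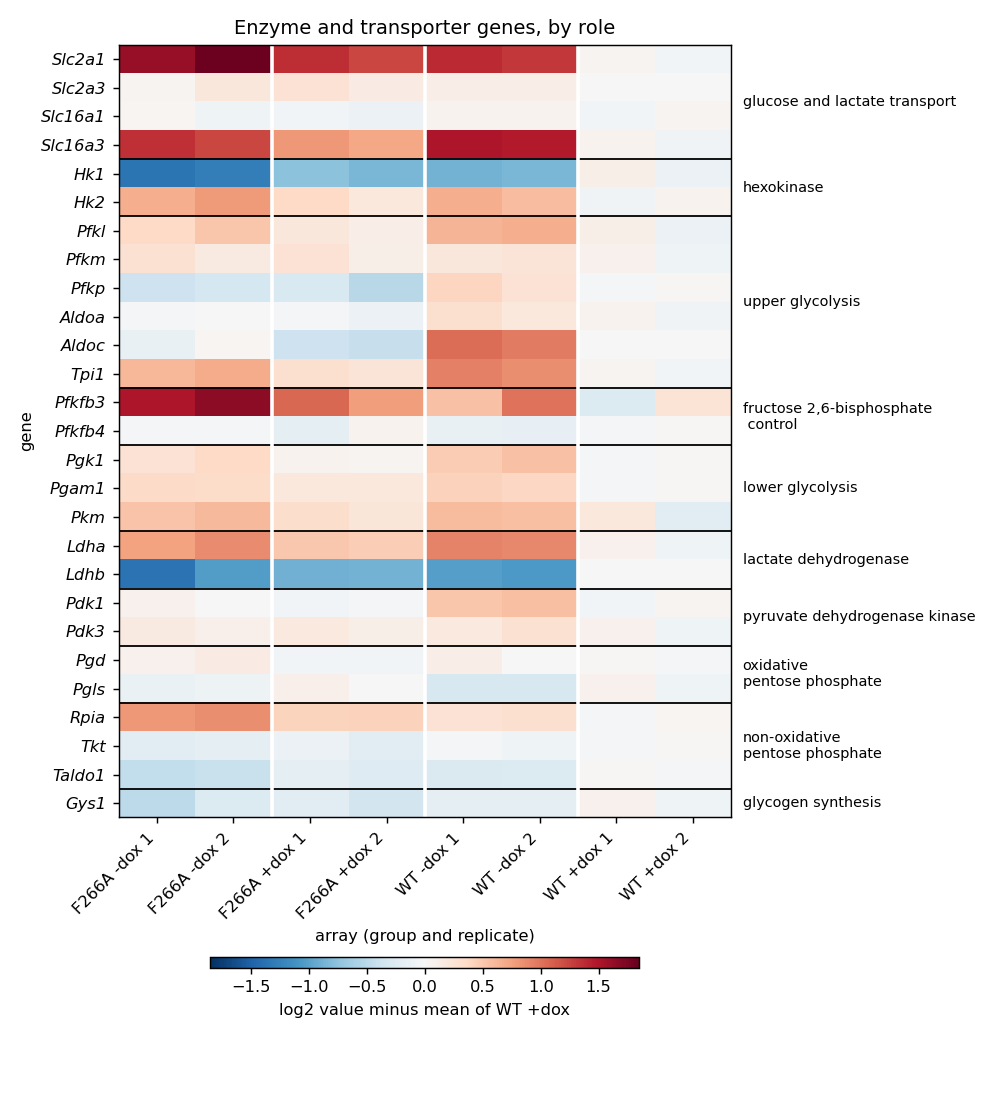
Log2 value minus the WT +dox mean of the gene (colour) for the 27 tested genes (rows, grouped by role) in each of the 8 arrays (columns). Slc2a1, Slc16a3, Hk2, Tpi1 and Ldha are red in all arrays outside WT +dox, Hk1 and Ldhb are blue there, and Aldoc is red only in WT -dox.

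Among the transporters, Slc2a1 and Slc16a3 moved and their paralogs did not pass the test. Slc2a1, which encodes the glucose transporter GLUT1, read 12.09 and 12.30 in F266A -dox, 11.84 and 11.72 in F266A +dox, 11.86 and 11.79 in WT -dox, and 10.53 and 10.44 in WT +dox. The WT +dox arrays lay below all other arrays by more than 1 log2 unit. Slc2a1 rose by 1.34 ± 0.09 (SE, 2.53-fold, adjusted p = 1.5e-05) on withdrawal of the wild type, and on withdrawal of the mutant by 0.41 ± 0.09 (adjusted p = 0.0108). The difference between the withdrawals was called (-0.93 ± 0.12, adjusted p = 0.0051). All 3 probe sets of the gene rose in the WT line, by 1.22 to 1.41. Slc16a3, which encodes the lactate exporter MCT4, read 6.41 and 6.28 in F266A -dox, 5.86 and 5.77 in F266A +dox, 6.55 and 6.52 in WT -dox, and 5.13 and 4.98 in WT +dox. Both WT +dox arrays were under the expression minimum of 5.64, so its level there is uncertain and so are the differences from it. Slc16a3 rose by 1.48 ± 0.08 (2.79-fold, adjusted p = 5.44e-06) on withdrawal of the wild type and by 0.53 ± 0.08 (adjusted p = 0.00265) on withdrawal of the mutant, with a called difference of -0.95 ± 0.11 (adjusted p = 0.00312). The paralogs Slc2a3 (GLUT3) and Slc16a1 (MCT1) differed by 0.12 ± 0.08 and 0.06 ± 0.07 in the WT line. They were called in none of the 6 comparisons between groups, in which Slc2a3 spanned -0.07 to 0.20 and Slc16a1 spanned -0.14 to 0.06. The probe sets of Slc2a3 disagreed when tested singly by limma. That with a mean of 5.78, close to the minimum, gave 0.32 in the WT line (adjusted p = 0.0507), the others 0.03 to 0.08. For F266A +dox against WT +dox it gave 0.35 and was called (adjusted p = 0.0366), while the others were not. The call of Slc2a1 on withdrawal of the mutant ended without F266A +dox replicate 2 (0.35, adjusted p = 0.0756) or F266A -dox replicate 2 (0.31, adjusted p = 0.0623).

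The hexokinase paralogs changed in opposite directions. Hk2, the inducible hexokinase of growing cells, read 11.14 and 11.27 in F266A -dox, 10.84 and 10.67 in F266A +dox, 11.15 and 11.04 in WT -dox, and 10.41 and 10.54 in WT +dox. Hk1, the form of most adult tissues, read 6.89 and 6.96 in F266A -dox, 7.48 and 7.39 in F266A +dox, 7.36 and 7.40 in WT -dox, and 8.34 and 8.14 in WT +dox. Hk1 was thus highest in both WT +dox arrays and lowest in both F266A -dox arrays, with the intermediate groups overlapping. When the wild type was withdrawn Hk2 rose by 0.62 ± 0.09 (adjusted p = 0.000828) and Hk1 fell by 0.86 ± 0.08 (adjusted p = 0.000107). When the mutant was withdrawn Hk2 rose by 0.45 ± 0.09 (adjusted p = 0.00839) and Hk1 fell by 0.51 ± 0.08 (adjusted p = 0.00356). Neither gene had a called difference between the withdrawals (Hk2 -0.17 ± 0.12, adjusted p = 0.459, and Hk1 0.35 ± 0.12, adjusted p = 0.123). Both probe sets of Hk1 fell in the WT line, by 0.66 and 1.06. Without F266A +dox replicate 2 the mutant's call of Hk2 ended (0.36, adjusted p = 0.0629).

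In upper glycolysis, which runs from phosphofructokinase to triose phosphate isomerase, Tpi1 and Aldoc changed most. Tpi1, which interconverts the triose phosphates, read 12.01 and 12.09 in F266A -dox, 11.70 and 11.65 in F266A +dox, 12.34 and 12.27 in WT -dox, and 11.46 and 11.35 in WT +dox, and no groups overlapped. It rose by 0.90 ± 0.07 (1.86-fold, adjusted p = 4.04e-05) on withdrawal of the wild type and by 0.38 ± 0.07 (adjusted p = 0.00738) on withdrawal of the mutant. The difference between the withdrawals was called for Tpi1 (-0.52 ± 0.10, adjusted p = 0.0227). Aldoc, the aldolase best known from brain, read 8.38 and 8.55 in F266A -dox, 8.13 and 8.10 in F266A +dox, 9.55 and 9.48 in WT -dox, and 8.51 and 8.53 in WT +dox. WT -dox lay above and F266A +dox below all other arrays of this gene, while F266A -dox overlapped WT +dox. Aldoc rose by 1.00 ± 0.08 (adjusted p = 3.14e-05) in the WT line and by 0.35 ± 0.08 (adjusted p = 0.0131) in the F266A line, a called difference of -0.65 ± 0.11 (adjusted p = 0.0112). Its ubiquitous paralog Aldoa, with 12.11 and 12.14 in F266A -dox, 12.10 and 12.03 in F266A +dox, 12.42 and 12.32 in WT -dox, and 12.20 and 12.06 in WT +dox, rose by 0.24 ± 0.08 (adjusted p = 0.0362) on withdrawal of the wild type. Calls that ended without 1 array were those of Aldoa in the WT line without either WT -dox array (0.19 and 0.29, adjusted p = 0.202 and 0.0656) or the second WT +dox array (0.17, adjusted p = 0.198), of Tpi1 in the F266A line without F266A +dox replicate 2 (0.35, adjusted p = 0.0518), and of Aldoc there without F266A +dox replicate 1 (0.37, adjusted p = 0.0588) or 2 (0.33, adjusted p = 0.0729) or F266A -dox replicate 2 (0.26, adjusted p = 0.074). The difference between the withdrawals lost its call for Aldoc without F266A +dox replicate 1 (-0.63, adjusted p = 0.0571) and for Tpi1 without WT +dox replicate 2, either WT -dox array or either F266A +dox array (adjusted p from 0.0584 to 0.0942). With no expression minimum the rise of Aldoc was 0.47 in the WT line (adjusted p = 0.00519), and the gene was called neither in the F266A line (0.09, adjusted p = 0.574) nor for the difference between the withdrawals (-0.38, adjusted p = 0.176).

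Of the phosphofructokinase genes, Pfkl rose most on withdrawal of the wild type and Pfkp set the lines apart. Pfkl, the liver-type subunit, read 7.87 and 8.01 in F266A -dox, 7.72 and 7.63 in F266A +dox, 8.14 and 8.18 in WT -dox, and 7.61 and 7.40 in WT +dox. It rose by 0.65 ± 0.09 (adjusted p = 0.000643) in the WT line, where its probe sets gave 1.00, 0.83 and 0.13, the smallest from a probe set with a mean of 5.74, close to the minimum. The change of Pfkl in the F266A line was 0.27 ± 0.09 and not called (adjusted p = 0.0601). Pfkp, the platelet-type subunit, read 6.86 and 6.91 in F266A -dox, 6.95 and 6.73 in F266A +dox, 7.63 and 7.51 in WT -dox, and 7.22 and 7.26 in WT +dox, so that in the mean of its 3 probe sets all 4 F266A arrays lay below all 4 WT arrays. It rose by 0.33 ± 0.09 (adjusted p = 0.0172) on withdrawal of the wild type, a call that ended without either WT +dox array (adjusted p = 0.0828 and 0.0509) or without WT -dox replicate 1 (0.27, adjusted p = 0.116). The probe sets of Pfkp disagreed there, with 0.61, 0.36 and 0.02, and also for F266A +dox against WT +dox, with -0.59, 0.03 and -0.64. The muscle-type subunit gene Pfkm, at 8.24 and 8.13 in F266A -dox, 8.23 and 8.07 in F266A +dox, 8.17 and 8.20 in WT -dox, and 8.04 and 7.88 in WT +dox, was not called on either withdrawal.

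Fructose 2,6-bisphosphate, the activator of phosphofructokinase, is made and degraded by the PFKFB enzymes, and Pfkfb3 was the noisiest of the genes. Pfkfb3, whose enzyme strongly favours synthesis, read 7.35 and 7.51 in F266A -dox, 6.91 and 6.63 in F266A +dox, 6.40 and 6.86 in WT -dox, and 5.60 and 6.11 in WT +dox. WT -dox had an SD of 0.32 and WT +dox of 0.36, and 1 WT +dox array lay under the minimum. Pfkfb3 rose by 0.78 ± 0.18 (adjusted p = 0.0114) on withdrawal of the wild type and by 0.66 ± 0.18 (adjusted p = 0.0353) on withdrawal of the mutant. Leaving out WT +dox replicate 1 (0.52, adjusted p = 0.0777) or, in the -dox group, replicate 2 (0.55, adjusted p = 0.0772) ended the first call. The second was lost without any array of the F266A line (adjusted p from 0.0644 to 0.189). With no expression minimum the changes of Pfkfb3 were 0.51 and 0.42. Pfkfb4, which stayed between 6.87 and 7.11 in all 8 arrays, was called in no comparison.

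The 3 tested genes of lower glycolysis rose on withdrawal of the wild type, while Gapdh, measured by control probe sets, was not called. Pgk1, the first enzyme of the pathway to make ATP, read 12.62 and 12.72 in F266A -dox, 12.41 and 12.40 in F266A +dox, 12.82 and 12.89 in WT -dox, and 12.34 and 12.37 in WT +dox. Pkm, the pyruvate kinase gene, read 12.36 and 12.44 in F266A -dox, 12.16 and 12.06 in F266A +dox, 12.42 and 12.39 in WT -dox, and 12.03 and 11.64 in WT +dox. The groups of neither gene overlapped in the WT line, where Pgk1 rose by 0.51 ± 0.07 (adjusted p = 0.000655), Pkm by 0.57 ± 0.11 (adjusted p = 0.00444) and the phosphoglycerate mutase gene Pgam1 by 0.41 ± 0.06 (adjusted p = 0.00134). In the F266A line only Pgk1 was called (0.26 ± 0.07, adjusted p = 0.0264), and this call ended without F266A +dox replicate 1 (0.27, adjusted p = 0.103), F266A +dox replicate 2 (0.25, adjusted p = 0.105) or F266A -dox replicate 2 (0.21, adjusted p = 0.131). Pgam1 and Pkm were at 0.15 ± 0.06 (adjusted p = 0.127) and 0.29 ± 0.11 (adjusted p = 0.103). Without WT +dox replicate 2 the rise of Pkm in the WT line was 0.38 (adjusted p = 0.017). Gapdh, which links upper and lower glycolysis and is often used as a reference gene, read 13.86 and 13.85 in F266A -dox, 13.87 and 13.81 in F266A +dox, 13.91 and 13.86 in WT -dox, and 13.88 and 13.77 in WT +dox by its control probe sets. Added to the fit as a further gene, it differed by -0.04 to 0.06 between groups, with overlapping arrays in all 6 comparisons and no call (adjusted p from 0.571 to 0.911).

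Lactate dehydrogenase repeated the opposite changes of the hexokinases. Ldha, whose subunit favours lactate formation, read 12.80 and 12.94 in F266A -dox, 12.55 and 12.51 in F266A +dox, 12.98 and 12.95 in WT -dox, and 12.14 and 11.97 in WT +dox. Ldhb, whose subunit favours lactate oxidation, read 11.09 and 11.41 in F266A -dox, 11.56 and 11.57 in F266A +dox, 11.43 and 11.38 in WT -dox, and 12.43 and 12.46 in WT +dox. WT +dox was lowest for Ldha and highest for Ldhb, without overlap with any other group. With the wild type withdrawn Ldha rose by 0.91 ± 0.08 (1.88-fold, adjusted p = 6.92e-05) and Ldhb fell by 1.04 ± 0.10 (adjusted p = 0.000104), all 4 probe sets of Ldhb falling by 1.03 to 1.06. On withdrawal of the mutant Ldha rose by 0.34 ± 0.08 (adjusted p = 0.0182), while Ldhb was at -0.32 ± 0.10 (adjusted p = 0.0506) and not called. The difference between the withdrawals was called for Ldha (-0.57 ± 0.11, adjusted p = 0.0241) and for Ldhb (0.72 ± 0.14, adjusted p = 0.0217). The call for Ldhb ended without any 1 of the WT or F266A +dox arrays (adjusted p from 0.0511 to 0.0889), and that for Ldha without WT +dox replicate 2, either WT -dox array or either F266A +dox array (adjusted p from 0.0617 to 0.0991). The rise of Ldha in the F266A line lost its call without either F266A +dox array (adjusted p = 0.0754 and 0.0914) or F266A -dox replicate 2 (0.27, adjusted p = 0.0986).

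Pyruvate dehydrogenase kinases switch off the enzyme that feeds pyruvate into mitochondria. Pdk1 read 9.97 and 9.90 in F266A -dox, 9.85 and 9.86 in F266A +dox, 10.40 and 10.45 in WT -dox, and 9.85 and 9.94 in WT +dox, so that only WT -dox stood apart. It rose by 0.53 ± 0.07 (adjusted p = 0.000491) on withdrawal of the wild type, while the change on withdrawal of the mutant was 0.08 ± 0.07 (adjusted p = 0.438). The difference between the withdrawals was called for Pdk1 (-0.45 ± 0.10, adjusted p = 0.0327), but not without WT +dox replicate 1 (-0.40, adjusted p = 0.102), F266A -dox replicate 2 (-0.41, adjusted p = 0.0873), either WT -dox array (adjusted p = 0.0763 and 0.115) or either F266A +dox array (adjusted p = 0.104 and 0.0938), nor with no expression minimum (-0.33, adjusted p = 0.171). Pdk3, at 9.14 and 9.06 in F266A -dox, 9.15 and 9.08 in F266A +dox, 9.16 and 9.26 in WT -dox, and 9.06 and 8.89 in WT +dox, rose by 0.24 ± 0.08 in the WT line. Its adjusted p was 0.0494, and the call ended under 12 of 18 alternative settings, among them the removal of any array other than WT +dox replicate 1 (adjusted p from 0.0521 to 0.265).

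The pentose phosphate genes changed little, except Rpia. Rpia, which makes ribose 5-phosphate, read 8.08 and 8.14 in F266A -dox, 7.69 and 7.71 in F266A +dox, 7.55 and 7.57 in WT -dox, and 7.24 and 7.32 in WT +dox. The groups did not overlap, with both F266A groups above both WT groups. Rpia rose by 0.28 ± 0.07 (adjusted p = 0.0104) on withdrawal of the wild type and by 0.41 ± 0.07 (adjusted p = 0.0035) on withdrawal of the mutant. Taldo1, the transaldolase, fell by 0.26 ± 0.06 (adjusted p = 0.0131) and by 0.22 ± 0.06 (adjusted p = 0.0391) on these withdrawals, and Pgls, the lactonase of the oxidative branch, fell by 0.30 ± 0.07 (adjusted p = 0.0147) on the first. Pgd, the NADPH-producing dehydrogenase, stayed between 10.73 and 10.94 in all 8 arrays and was called in no comparison. Tkt, the transketolase, stayed between 12.29 and 12.51, and the glycogen synthase gene Gys1 between 6.89 and 7.47. Each of these was called only between F266A -dox and WT +dox, at -0.19 ± 0.07 (adjusted p = 0.0376) and -0.37 ± 0.09 (adjusted p = 0.00878). For withdrawal of the wild type the calls of Rpia, Pgls and Taldo1 all ended without WT +dox replicate 1 or WT -dox replicate 2, and those of Pgls and Taldo1 also without WT -dox replicate 1 (adjusted p from 0.0653 to 0.102). The call of Taldo1 in the F266A line ended without any 1 of the 8 arrays (adjusted p from 0.0512 to 0.181). The call of Gys1 ended without WT +dox replicate 1 (-0.29, adjusted p = 0.0662) or F266A -dox replicate 1 (-0.26, adjusted p = 0.0618), and that of Tkt without any array of the WT line or of F266A -dox (adjusted p from 0.0577 to 0.139).

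**Figure D2:**
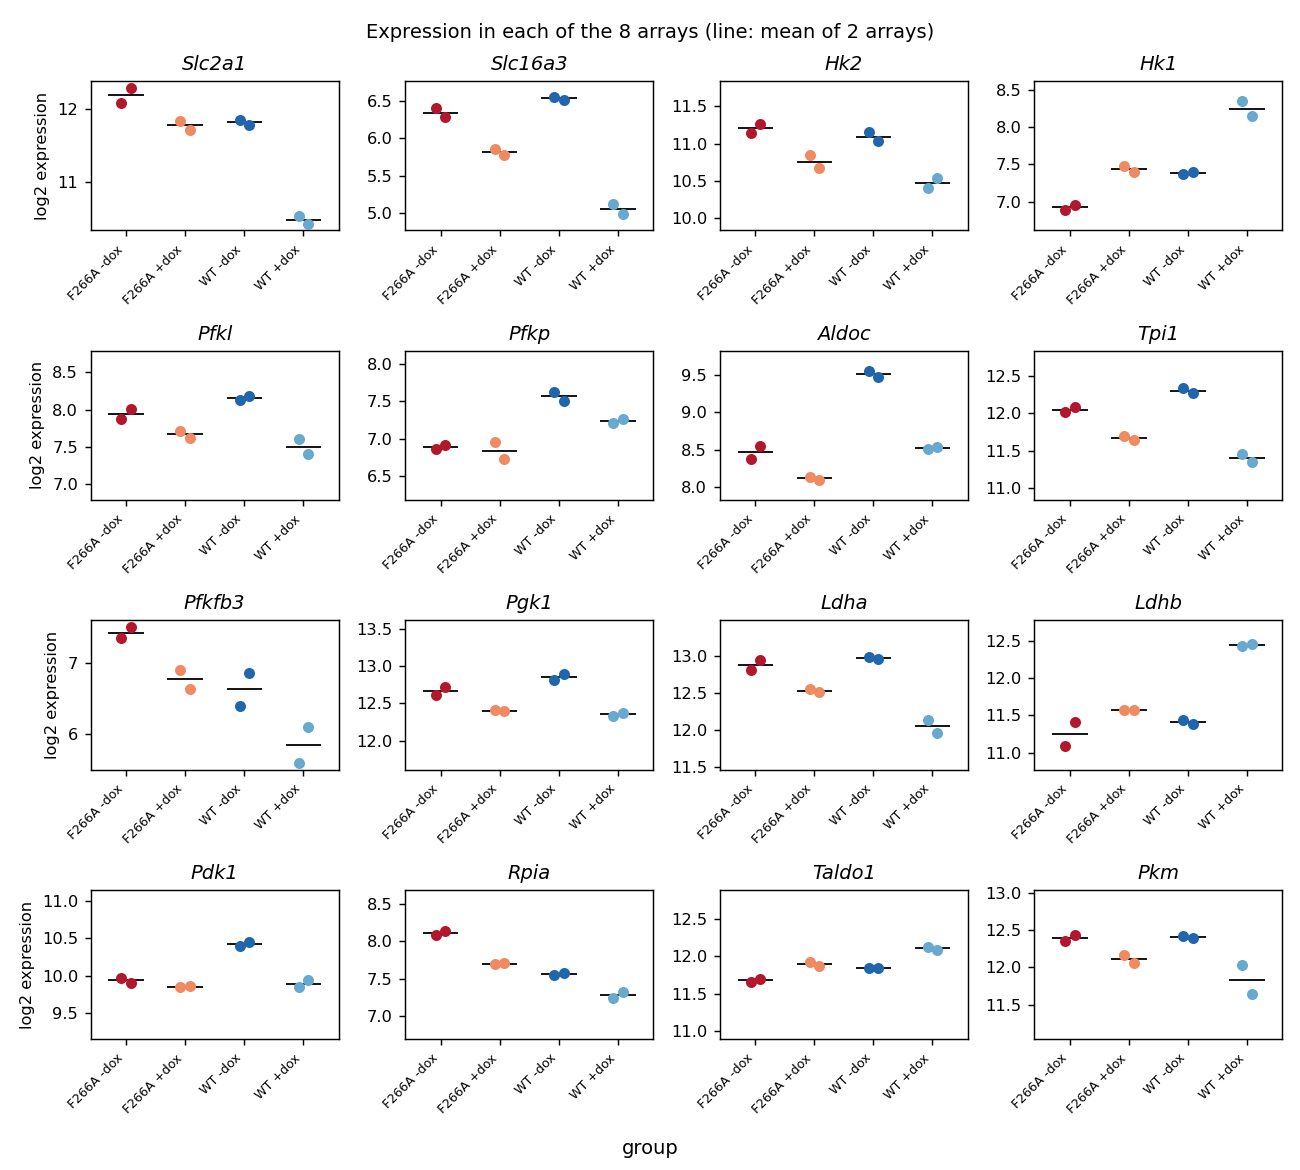
Log2 expression (vertical axes, separate ranges of at least 2 log2 units) of 16 genes in the 2 arrays of each group (points), with the group mean (line). Hk1 and Ldhb are highest in WT +dox, Pfkp is lower in all F266A arrays than in all WT arrays, and Aldoc and Pdk1 are high only in WT -dox.

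The second comparison is withdrawal of the mutant (F266A -dox against F266A +dox). Of the 27 genes 9 were higher and 2 lower in F266A -dox, against 8.94% and 10.6% of all genes, and the median difference was 0.08. The genes called higher were Slc2a1, Slc16a3, Hk2, Aldoc, Tpi1, Pfkfb3, Pgk1, Ldha and Rpia, and those called lower were Hk1 and Taldo1. No change in this comparison reached 2-fold, the largest being that of Pfkfb3 at 0.66. All 11 of these genes were called in the same direction on withdrawal of the wild type, which rests on other arrays. Of all 2333 genes called on withdrawal of the mutant, 59.8% were. Leaving out F266A +dox replicate 2 cut the genes called higher to 2, and leaving out F266A -dox replicate 2 to 4 or F266A +dox replicate 1 to 5.

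A test of the difference between the withdrawals called 7 of the 27 genes, 6 lower (Slc2a1, Slc16a3, Aldoc, Tpi1, Ldha and Pdk1) and 1 higher (Ldhb), against 2.94% and 2.21% of all genes. In each of them the change was smaller in the F266A line than in the WT line. The median difference between the withdrawals was -0.19 over the 27 genes and -0.01 over all genes. The levels with doxycycline differed as well for 6 of them. F266A +dox was called above WT +dox for Slc2a1, Slc16a3, Tpi1 and Ldha and below it for Ldhb and Aldoc, while Pdk1 was at -0.04 (adjusted p = 0.691). For Hk1, Hk2, Pfkfb3, Rpia and Taldo1 the withdrawals differed by -0.17 to 0.35 without a call (adjusted p from 0.123 to 0.844).

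**Figure D3:**
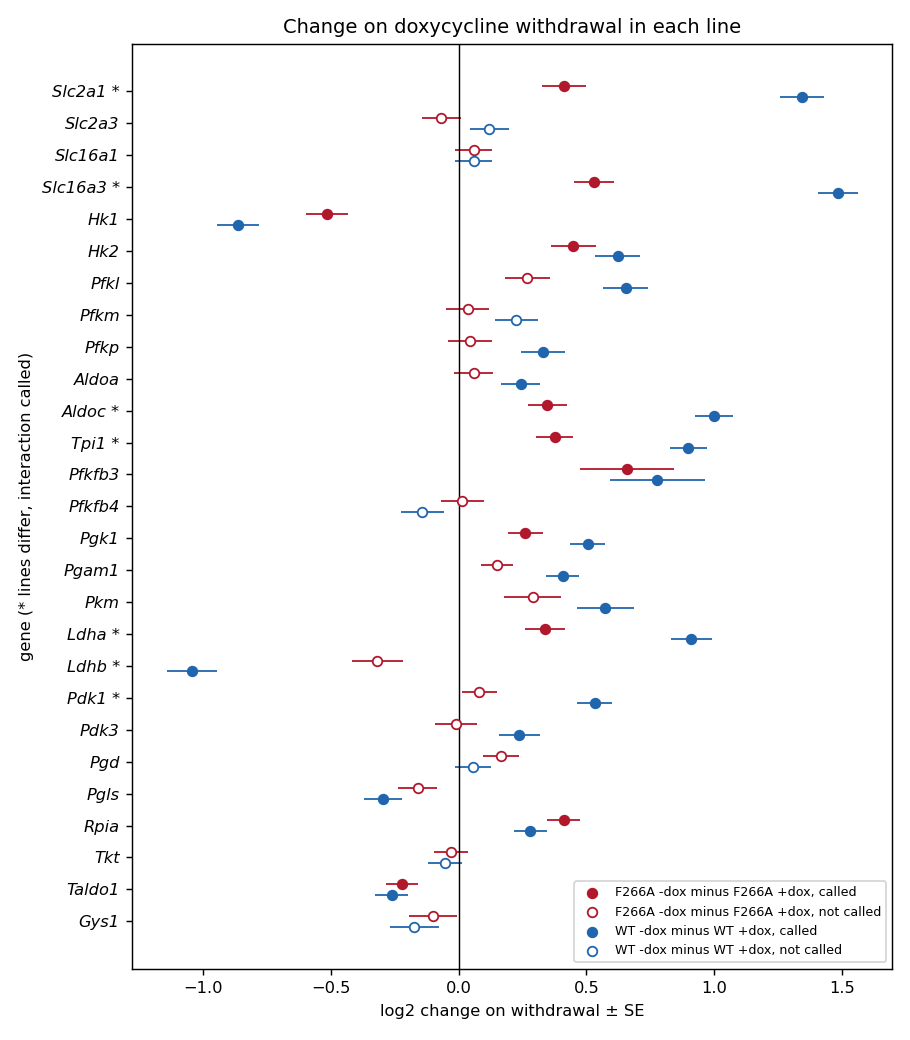
Log2 change on withdrawal of doxycycline ± SE (horizontal axis) for the 27 genes (rows) in the F266A line (red) and the WT line (blue), filled where called. Slc2a1, Slc16a3, Aldoc, Tpi1, Ldha, Ldhb and Pdk1 (asterisks) changed less in the F266A line, and Hk1, Hk2, Pfkfb3, Rpia and Taldo1 moved by amounts not called as different.

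The third comparison sets the induced lines side by side (F266A +dox against WT +dox) and shares the WT +dox arrays with the first. Of the 27 genes 8 were higher and 5 lower in F266A +dox, against 15.9% and 12.5% of all genes, with a median of 0.05. Slc2a1 was 1.30 ± 0.09 higher (2.46-fold, adjusted p = 1.33e-05), Pfkfb3 0.92 ± 0.18 (adjusted p = 0.00553), Slc16a3 0.76 ± 0.08 (adjusted p = 0.000143), Ldha 0.48 ± 0.08 (adjusted p = 0.00207) and Rpia 0.42 ± 0.07 (adjusted p = 0.00141). Hk2, Tpi1 and Pgam1 were higher by 0.20 to 0.28. Lower were Ldhb by -0.88 ± 0.10 (adjusted p = 0.000229) and Hk1 by -0.81 ± 0.08 (adjusted p = 0.000137), followed by Pfkp (-0.40 ± 0.09, adjusted p = 0.00794), Aldoc (-0.40 ± 0.08, adjusted p = 0.00389) and Taldo1 (-0.21 ± 0.06, adjusted p = 0.0374). Pgk1, Pkm, Pdk1 and Aldoa, which rose on withdrawal of the wild type, were at 0.05, 0.28, -0.04 and -0.07 here and not called. Pkm was at 0.08 without WT +dox replicate 2 and was called without replicate 1 of that group (0.47, adjusted p = 0.00779). Calls ended without F266A +dox replicate 1 for Pfkfb3 (0.78, adjusted p = 0.0584), Hk2 (0.19, adjusted p = 0.24) and Tpi1 (0.24, adjusted p = 0.112), without F266A +dox replicate 2 for Pfkp (-0.29, adjusted p = 0.0581) and Tpi1 (0.30, adjusted p = 0.0563), and without the second WT +dox array for Tpi1 (0.21, adjusted p = 0.12). Hk2 also lost its call without either WT +dox array (0.22 and 0.35, adjusted p = 0.197 and 0.0538), with no expression minimum (adjusted p = 0.0694) and with arrays centred on their medians (adjusted p = 0.0512). With no expression minimum Aldoc was not called (-0.23, adjusted p = 0.111). The calls of Pgam1 and Taldo1 ended without any 1 of the WT or F266A +dox arrays (adjusted p from 0.0635 to 0.168).

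The uninduced lines differed in fewer of the genes (F266A -dox against WT -dox), with 3 higher and 6 lower in F266A -dox, against 14.0% and 13.4% of all genes. Higher were Pfkfb3 by 0.80 ± 0.18 (adjusted p = 0.0114), Rpia by 0.55 ± 0.07 (adjusted p = 0.000343) and Slc2a1 by 0.37 ± 0.09 (adjusted p = 0.0118). Lower were Aldoc by -1.05 ± 0.08 (adjusted p = 2.86e-05), Pfkp by -0.68 ± 0.09 (adjusted p = 0.000476), Pdk1 by -0.49 ± 0.07 (adjusted p = 0.000782) and Hk1 by -0.46 ± 0.08 (adjusted p = 0.00319), with Aldoa and Tpi1 at -0.25 each (adjusted p = 0.0367 and 0.0287). Ldha, Ldhb, Hk2 and Slc16a3 were at -0.09, -0.15, 0.11 and -0.19 and not called. The call of Slc2a1 ended without WT -dox replicate 2 (0.34, adjusted p = 0.076) or F266A -dox replicate 2 (0.27, adjusted p = 0.0791), that of Pfkfb3 without WT -dox replicate 1 (0.57, adjusted p = 0.0739) or F266A -dox replicate 2 (0.72, adjusted p = 0.066), that of Tpi1 without any array of either group (adjusted p from 0.0537 to 0.155), and that of Aldoa without any of these or of the F266A +dox arrays (adjusted p from 0.0506 to 0.2).

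Cells on the induced mutant were also set against cells with the wild type switched off (F266A +dox against WT -dox), groups of different line and different treatment. Here 1 gene was higher and 10 were lower in F266A +dox, against 9.09% and 4.41% of all genes, with a median of -0.11. Called lower were Aldoc (-1.40 ± 0.08, adjusted p = 2.63e-05), Pfkp (-0.73 ± 0.09, adjusted p = 0.000798), Slc16a3 (-0.72 ± 0.08, adjusted p = 0.000506), Tpi1 (-0.63 ± 0.07, adjusted p = 0.000646) and Pdk1 (-0.57 ± 0.07, adjusted p = 0.000804), and at -0.49 to -0.31 Pfkl, Pgk1, Ldha, Hk2 and Aldoa. Pgls was 0.35 ± 0.07 higher (adjusted p = 0.0147). Slc2a1, Hk1 and Pfkfb3 overlapped between these groups, at -0.04, 0.06 and 0.14. Without F266A +dox replicate 2 the number called lower was 6. Calls that ended without 1 array were those of Hk2 and Aldoa (any array of either group, adjusted p from 0.0536 to 0.191), Pfkl (F266A +dox replicate 2, -0.44, adjusted p = 0.0557), Ldha (F266A +dox replicate 2 or WT -dox replicate 1, adjusted p = 0.053 and 0.0541) and Pgls (F266A +dox replicate 1 or either WT -dox array, adjusted p from 0.0745 to 0.109). Of all genes tested, 1085 were higher and 526 lower in this comparison, and the split moved to 984 and 852 with arrays centred on their medians and to 1043 and 745 after quantile normalization.

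Over all genes F266A -dox against WT +dox gave the most calls of the 6 comparisons, though among the 27 genes withdrawal of the wild type gave more. Of the 27 genes 12 were higher and 6 lower in F266A -dox, against 25.9% and 25.0% of all genes, with a median of 0.13. Slc2a1 was higher by 1.71 ± 0.09 (3.27-fold, adjusted p = 6.75e-07), Pfkfb3 by 1.58 ± 0.18 (2.98-fold, adjusted p = 0.0001) and Slc16a3 by 1.29 ± 0.08 (2.45-fold, adjusted p = 1.95e-06). Rpia, Ldha, Hk2 and Tpi1 were higher by 0.65 to 0.83. Hk1 was at -1.32 ± 0.08 (adjusted p = 2.16e-06) and Ldhb at -1.20 ± 0.10 (adjusted p = 1.11e-05), and Taldo1, Gys1, Pfkp and Tkt were at -0.43 to -0.19. Pfkl, Pkm, Pgam1, Pgk1 and Pfkm were higher by 0.22 to 0.56, and the call of Pfkm ended without WT +dox replicate 2 (0.15, adjusted p = 0.266) or any array of F266A -dox or WT -dox (adjusted p from 0.0553 to 0.199). Of the 8 ESC markers 6 were called lower in F266A -dox, both against WT +dox and against WT -dox, and 3 of 5 trophoblast and 2 of 4 neural genes were called higher in each, while the trophoblast gene Tfap2c was lower in each and the neural gene Sox1 lower against WT +dox. The endoderm gene Foxa2 and the fibroblast gene Col1a2 were higher by 0.77 and 0.63 against WT +dox. Foxa2 exceeded the expression minimum only in F266A -dox, through which it entered the test, so its difference is uncertain. The other measured endoderm gene, Gata6, was at -0.12 and not called. The part of these markers in the values was not tested. Aldoc and Pdk1, which were high only in WT -dox, were at -0.06 and 0.04 and not called. Of the 27 genes 23 (85.2%) were called in at least 1 of the 6 comparisons between groups, beside 61.1% of all genes, and Slc2a3, Slc16a1, Pfkfb4 and Pgd in none. Among them 15 had a called change of at least 0.5, which decided whose values were given per array. That count was not made over all genes, so it has no share to stand beside.

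**Figure D4:**
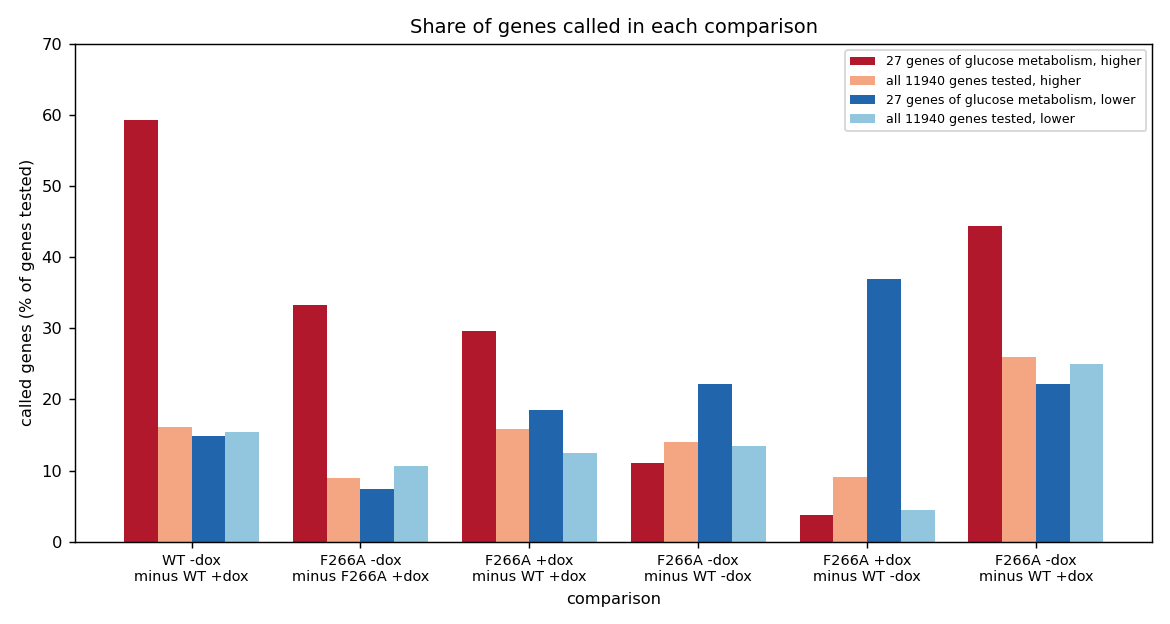
Share of genes called higher (red) and lower (blue) in each of the 6 comparisons (horizontal axis, the group named first minus the other), as a percentage of the 27 genes (dark bars) and of all 11940 genes tested (light bars). On withdrawal of the wild type 59.3% of the 27 genes were called higher, against 16.1% of all genes, and for F266A +dox minus WT -dox 37% were called lower, against 4.41%.

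Within each array the balance between paralogs was compared with its mean in WT +dox, which shows unequal change of the paralogs and not which of them is more abundant. The difference Hk2 minus Hk1 was higher by 2.02 and 2.08 log2 units in the F266A -dox arrays, by 1.13 and 1.05 in F266A +dox and by 1.56 and 1.41 in WT -dox, and the WT +dox arrays themselves lay at -0.16 and 0.16. Ldha minus Ldhb was higher by 2.11 and 1.91 in F266A -dox, by 1.38 and 1.33 in F266A +dox and by 1.94 and 1.96 in WT -dox, with WT +dox at 0.10 and -0.10. For both enzymes every array outside WT +dox thus lay above both WT +dox arrays. Slc2a1 minus Slc2a3 (means of 1.58 in F266A -dox, 1.09 in F266A +dox and 1.22 in WT -dox) and Slc16a3 minus Slc16a1 (1.32, 0.85 and 1.42 in the same order) shifted in the same direction in all 3 groups. Aldoc minus Aldoa did not: its mean was -0.05 in F266A -dox, -0.34 in F266A +dox and 0.76 in WT -dox. Pfkp minus Pfkl was lower in all 3 groups, at -0.79 in F266A -dox, -0.57 in F266A +dox and -0.32 in WT -dox, and Pfkp minus Pfkm was at -0.58, -0.59 and 0.10. These shifts were not tested, as they restate the changes of the genes above.

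**Figure D5:**
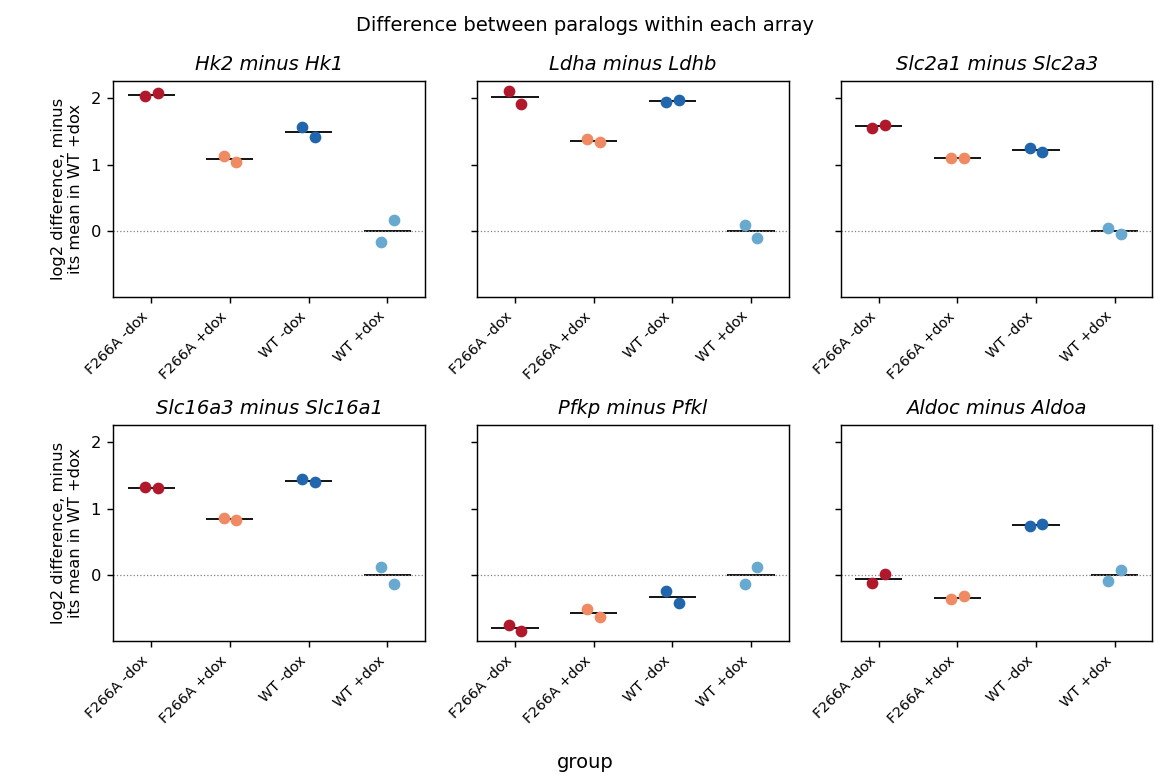
Log2 difference between paralogs within each array minus its mean in WT +dox (vertical axis) for 6 pairs of genes in the 4 groups (points are arrays, lines are means). Hk2 minus Hk1 and Ldha minus Ldhb are shifted upward in all arrays outside WT +dox, and Aldoc minus Aldoa only in WT -dox.

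Of 45 further tested genes of glucose metabolism (63 listed) 9 were higher and 10 lower on withdrawal of the wild type, beside 16.1% and 15.4% of all genes, and their median was -0.08. The lowest were Pck2, the mitochondrial enzyme that makes phosphoenolpyruvate, at -0.92 ± 0.08 (adjusted p = 8.79e-05), and Pdk4, a pyruvate dehydrogenase kinase known from fasting, at -0.74 ± 0.09 (adjusted p = 0.00047), opposite in sign to Pdk1. Pck2 read 7.12 and 7.04 in F266A -dox, 7.43 and 7.28 in F266A +dox, 7.27 and 7.45 in WT -dox, and 8.30 and 8.25 in WT +dox. The highest were Pdp1, the phosphatase that reverses the kinases, at 0.73 ± 0.07 (adjusted p = 0.000153), and the phosphoglucomutase gene Pgm1 at 0.67 ± 0.10 (adjusted p = 0.00105). Of 16 tested enzymes of the tricarboxylic acid cycle 5 were lower on withdrawal of the wild type, beside 15.4% of all genes, with the citrate synthase gene Cs at -0.36 ± 0.06 (adjusted p = 0.00264) and the succinate dehydrogenase gene Sdhb at -0.36 ± 0.07 (adjusted p = 0.00294). In F266A +dox against WT +dox 6 of the 16 were lower, beside 12.5% of all genes.

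Of 16 tested regulators of HIF and MYC 6 were higher on withdrawal of the wild type and 10 were not called, with a median of 0.26. Of 17 tested HIF targets outside glycolysis 10 were higher and 1 lower, with a median of 0.29, beside 16.1% and 15.4% of all genes. The lowest change among them was that of Vegfa, at -0.29. In F266A +dox against WT -dox 7 of these targets were lower, beside 4.41% of all genes. Myc, which encodes the transcription factor MYC, read 8.97 and 8.84 in F266A -dox, 7.88 and 7.67 in F266A +dox, 8.47 and 8.41 in WT -dox, and 5.84 and 6.08 in WT +dox. The groups did not overlap, with F266A -dox highest and WT +dox lowest. Myc rose by 2.47 ± 0.10 (adjusted p = 1.89e-06) on withdrawal of the wild type and by 1.13 ± 0.10 (adjusted p = 0.000294) on withdrawal of the mutant. Egln3, which encodes a prolyl hydroxylase that marks HIF for degradation and is itself a HIF target, read 7.34 and 7.30 in F266A -dox, 6.98 and 6.97 in F266A +dox, 8.42 and 8.53 in WT -dox, and 6.41 and 6.47 in WT +dox. Bnip3, a mitophagy receptor induced by hypoxia, read 10.21 and 10.42 in F266A -dox, 9.71 and 9.53 in F266A +dox, 11.42 and 11.33 in WT -dox, and 9.03 and 9.18 in WT +dox. Both were highest in WT -dox. Among the tested glucose genes followed above, the highest mean lay in WT -dox for 14 and in F266A -dox for 5. This ranking of means includes differences that were not called, and it was not made over all genes. For F266A -dox against WT -dox, Ldha was at -0.09 (limma, adjusted p = 0.42) and Hk2 at 0.11 (adjusted p = 0.404). Whether HIF or MYC had a part in the changes of the glucose genes was not tested. Egln3 rose by 2.03 ± 0.07 (adjusted p = 8.24e-07) and Bnip3 by 2.27 ± 0.10 (adjusted p = 1.89e-06) on withdrawal of the wild type, and the difference between the withdrawals was -1.69 ± 0.10 (adjusted p = 0.000105) for Egln3 and -1.58 ± 0.14 (adjusted p = 0.000833) for Bnip3. Hif1a, which encodes the oxygen-regulated HIF subunit and is controlled mainly through protein stability, stayed between 9.85 and 10.03.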

How the data were processed

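RNA of 8 samples (4 groups of 2) was hybridised to Affymetrix mouse whole-genome arrays of short oligonucleotides. The authors deposited log2 expression values made by RMA (background correction, quantile normalization and summary per probe set) in R 2.11.1, per the submitters' notes. The table held 45101 probe sets, of which 34945 carried 1 gene symbol in the platform annotation, 932 several and 9160 none, and 64 were controls.

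As in the study's methods, probe sets above 50 on the linear scale (5.64 on the log2 scale) in at least 1 array were kept, and averaged for each symbol, leaving 11940 genes to test. The methods' significance analysis of microarrays was replaced by limma 3.58.1 in R 4.3.3, with 1 linear model over the 4 groups (4 residual and 5.32 prior degrees of freedom) and two-sided moderated tests. P-values were adjusted by Benjamini and Hochberg over all genes, and genes with an adjusted p under 0.05 were called. The scripts were tested on simulated data. The number of arrays limits the precision, the median SE of a difference being 0.08. Comparisons share arrays and the estimate of spread, so they are not independent of each other.

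Members and gene lists were chosen with earlier results of these data known. All members were named, with values per array for those with a called change of at least 0.5 and for paralogs beside them; of the other lists the genes with the largest changes were named. Alternatives were the expression minimum (none, or 100), the probe set per gene, quantile or median scaling, the groups fitted, a replicate block, the prior, array weights, the removal of single arrays and a threshold of 2-fold. The inclusion of control probe sets was chosen after seeing the data.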

Additional observations from a re-analysis of the deposited data

Results flagged for a closer look

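For 7 genes the change on withdrawal of doxycycline differed between the lines by the test of that difference itself (limma interaction term, adjusted over all genes; F266A line minus WT line). The difference was -0.95 for Slc16a3 (adjusted p = 0.00312) and -0.93 for Slc2a1 (adjusted p = 0.0051), the genes of lactate export and glucose uptake, and both kept their calls without any single array. It was -0.65 for Aldoc (adjusted p = 0.0112), -0.57 for Ldha (adjusted p = 0.0241), -0.52 for Tpi1 (adjusted p = 0.0227) and -0.45 for Pdk1 (adjusted p = 0.0327), all of which rose in the WT line. Ldhb, which fell in the WT line, differed by 0.72 (adjusted p = 0.0217). The calls of the last 5 ended without single arrays.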

How the results depend on the processing

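Leaving aside the 2-fold threshold, at most 18 alternatives were run for a gene, fewer for Slc16a3 and for the difference between the withdrawals, and no call of the 27 genes changed direction under them. Of 89 called changes 50 kept their call under all of those run and 39 lost it at least once, and of 100 uncalled changes 23 gained a call at least once. With the 2-fold threshold 11 of the 89 passed. The ranges of counts that follow are those with 1 array left out, and some counts went beyond them under other settings. A trended and robust prior gave 13 higher on withdrawal of the mutant, and 10 higher and 7 lower for F266A +dox against WT +dox. It gave 12 lower for F266A +dox against WT -dox. For F266A -dox against WT -dox the count lower was 9 with this prior, 8 with a minimum of 100 and 7 with quantile normalization. On withdrawal of the wild type the count higher (16) ranged from 12 to 15 with 1 array left out and the count lower (4) from 2 to 4. With a 2-fold threshold added these were 2 and 1. For F266A +dox against WT +dox the count higher (8) ranged from 4, without F266A +dox replicate 1, to 8, and the count lower (5) from 3 to 6. It was 3 with no expression minimum, and 1 and 0 genes passed 2-fold. On withdrawal of the mutant the count higher (9) ranged from 2, without F266A +dox replicate 2, to 11 and the count lower (2) from 1 to 2. The lower count was 1 with the 2 groups fitted alone, with array weights and with each probe set tested, and 0 genes passed 2-fold in either direction. For F266A -dox against WT -dox the count higher (3) ranged from 1 to 3 and the count lower (6) from 4 to 6, with 0 and 1 past 2-fold. For F266A +dox against WT -dox the count higher (1) ranged from 0 to 1 and was 2 with no minimum, and the count lower (10) ranged from 6 to 11, with 0 and 1 past 2-fold. For F266A -dox against WT +dox the counts (12 and 6) ranged from 11 to 12 and from 4 to 6, with 3 and 2 past 2-fold. For the difference between the withdrawals the count higher (1) ranged from 0 to 1 and was 2 with a minimum of 100 or with the brightest probe set per gene, and the count lower (6) ranged from 2, without F266A +dox replicate 1, to 6. It was 3 without either WT -dox array or F266A +dox replicate 2, and 0 genes passed 2-fold in either direction. The correlation of same-numbered deviations was 0.165 between the groups of the F266A line and 0.129 between those of the WT line. Between groups of different lines it ran from -0.18 to -0.11. Whether arrays were paired within a line was not tested, as the block used next was common to both lines. With the replicate number as a block the counts higher and lower were 15 and 4 on withdrawal of the wild type, 9 and 1 on withdrawal of the mutant, 6 and 4 for F266A +dox against WT +dox, 3 and 6 for F266A -dox against WT -dox, 1 and 10 for F266A +dox against WT -dox, 12 and 5 for F266A -dox against WT +dox, and 1 and 5 for the difference between the withdrawals. The block also ended the call of Hk2 for F266A +dox against WT +dox (adjusted p = 0.0561). The cause of these shifts was not tested. Values near the expression minimum, as for Slc16a3 in WT +dox, are limited by signal over background.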

Other observations

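Some further genes of glucose metabolism followed patterns of their own. Prps2, which makes the ribose precursor of nucleotides, read 8.06 and 7.97 in F266A -dox, 8.09 and 7.91 in F266A +dox, 7.70 and 7.75 in WT -dox, and 7.02 and 7.15 in WT +dox. It rose by 0.65 ± 0.08 (adjusted p = 0.000519) on withdrawal of the wild type and was at 0.02 (adjusted p = 0.916) on withdrawal of the mutant, a called difference of -0.63 ± 0.12 (adjusted p = 0.0191). H6pd, which starts the pentose phosphate route inside the endoplasmic reticulum, fell on both withdrawals, by 0.66 ± 0.08 (adjusted p = 0.000882) for the mutant and by 0.48 ± 0.08 (adjusted p = 0.00147) for the wild type. Mpc1, a subunit of the mitochondrial pyruvate carrier, also fell on both, by 0.36 ± 0.07 (adjusted p = 0.00634) for the mutant and by 0.41 ± 0.07 (adjusted p = 0.00167) for the wild type. Fbp1, an enzyme of gluconeogenesis, exceeded the minimum of 5.64 only in F266A -dox (5.85 and 5.90) and lay between 5.14 and 5.34 in the other groups.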
